A study of Mus musculus with 20 samples.

Results

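The entries from miR-6896 to miR-7094 are a block of mouse miRNAs whose hairpins lie largely inside introns of protein-coding genes. The members described here are all rows named mmu-miR-N-5p or mmu-miR-N-3p with a whole number N in that range, chosen by name and not by any measured value. They came to 278 of the 1481 mature miRNA features in the deposited tables, from 178 of the 199 possible numbers, with 141 5p arms and 137 3p arms. Another 6 entries of the same number range carry a letter or a further suffix and were left out by the rule.

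The members were measured by small RNA sequencing in primary cortical neurons from mouse embryos of embryonic day 15, cultured for 7 days. All cultures carry the strain label C57BL/6N-Cdr1asem1Nikr, and the genotype label divides them into wild type (WT) and ciRS-7 KO; ciRS-7, also called Cdr1as, is a neuronal circular RNA known for its many miR-7 sites. Normoxic cultures spent the treatment period in 5% CO2 at 37 °C in medium with 25 mM glucose and 0.2 mM pyruvate, and the deprived cultures spent 12 h in 1% O2, 5% CO2 at 37 °C in the same basal medium without those additions (oxygen-glucose deprivation, OGD, a dish model of ischaemia). Each of the 4 groups (normoxic WT, OGD WT, normoxic KO, OGD KO) held 5 biological replicates, per the series' design text.

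A mirtron is an intron, or a piece of one, that is released by splicing and then folds into a hairpin which Dicer can cut, so that the usual first cut by Drosha is skipped. In a classic mirtron both ends of the hairpin are splice sites. In a tailed mirtron one end of the hairpin is a splice site, and the extra intron sequence on the other side has to be trimmed away. Because the end of an intron is pyrimidine-rich and closes with AG, 3p arms of such hairpins carry those letters. Mirtron products are usually rare next to classical brain miRNAs such as miR-9 and miR-124.

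The RefSeq miRNA table (GRCm38.p6) held a mature sequence for 244 of the 278 members, and 34 were not matched. The sequences below are the members that the results turn on, printed 5′ to 3′ with the seed (bases 2 to 8) in capitals. The first set was called higher after OGD in both genotypes, a call that miR-6945-5p lost in KO on libraries thinned to equal depth:
miR-6937-5p: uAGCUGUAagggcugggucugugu
miR-7087-3p: uGCUGGCUcucuccccugccag
miR-7033-5p: uCUCCAGGagucugaggggcagg
miR-7058-3p: cUCGUUCCuuccuuucuuccag
miR-7082-5p: uACGGGCAggaggaggggagg
miR-6948-3p: uGUCCUUCcugucugaccaca
miR-7044-5p: gUGUGGUGgugguggcggc
miR-6945-5p: uCCUGGGAggggcagccccugg

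The second set, printed for contrast, holds well-read members with small OGD effects and the members that were lower after OGD:
miR-6944-3p: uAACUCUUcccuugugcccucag
miR-6977-3p: aAGGCGUUgccugacccugacc
miR-6958-3p: uCAGCUGCcucuugccaucacag
miR-6966-3p: uGCUGUGUgcuuccucugcag
miR-7015-3p: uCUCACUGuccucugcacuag
miR-6900-3p: uGGUGAUGggcucucuuguag

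No seed was shared between any 2 of the first 8 sequences. Among the other listed features with a RefSeq sequence, only miR-3474 carried the seed of miR-6945-5p, and none carried that of the other 7 risers. Features without a sequence were not compared. Over the 244 members with a sequence there were 231 seeds, of which 13 were each shared by a pair of members. The members are therefore not a seed family.

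What the members shared was their place in the gene and the letters that go with it. In GENCODE M21 on the same build, all 159 hairpins with a placed arm had at least 1 arm in an intron of a gene on the same strand, 1 of them (miR-7025) had its other arm in an exon, and 157 of the host genes were protein-coding. Of 119 placed 3p arms, 113 (94.96%) ended within 2 bases of the end of the intron and 92 ended exactly at it. Among the 429 other 3p features with a sequence the share was 6.99%. The 3p arms ended in AG in 93 of 119 cases (78.2%), against 9.56% of the other 3p features, and their median C content was 40.0% against 27.3%. The 5p arms were rich in G, with a median of 43.5% against 28.6% in the 408 other 5p features.

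The 5p ends looked different. Only 10 of 125 placed 5p arms (8.0%) started within 2 bases of the intron start, against 1.96% of the other 5p features. The median distance from the end of a 5p arm to the end of the intron was 38 bases, and 123 of the 125 lay within 100 bases. The hairpins thus stood at the downstream end of their introns, with a tail of intron before them in most cases. Host introns were between 66 and 36269 bases long (median 488), and 51 of 159 had up to 200 bases. The name "short intron" therefore held for part of the block, while the position at the intron's end held for nearly all of it. These features describe the annotated sequences and carry no test.

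**Figure D1:**
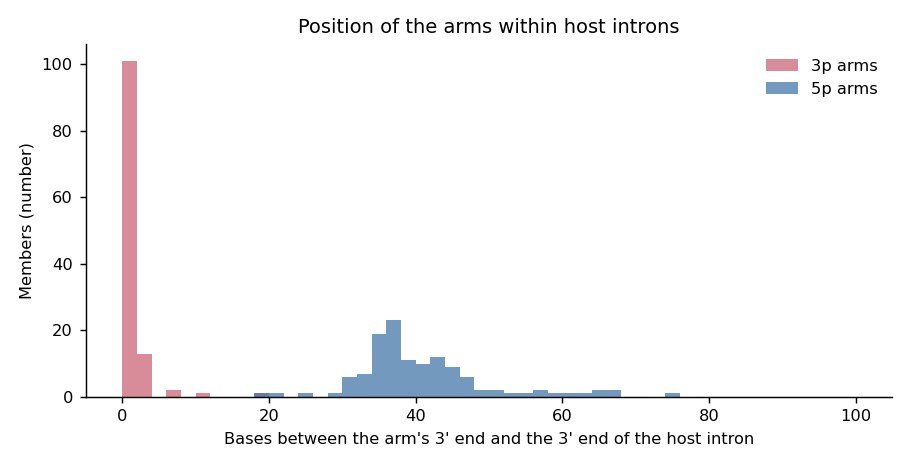
Distance in bases from the 3′ end of each member's mature arm to the 3′ end of its host intron (x axis) against the number of members (y axis, bins of 2 bases), for 3p arms (red) and 5p arms (blue) with up to 100 bases. Most 3p arms sit at the intron end, 92 of them exactly, and the 5p arms lie around their median of 38 bases.

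The deposited values could be turned back into whole reads, so detection can be given as counts. The 20 libraries held 1160582 to 12477032 reads, a 10.8-fold range, and OGD libraries were shallower on average. In total 38615 of 102987540 reads belonged to members, which is 0.0375% of reads for 18.8% of features. The median member had 17 reads over all 20 libraries, against 146 for the 1203 other features. Under 20 reads were found for 156 members, 20 to 99 for 96 members and at least 100 for 26 members.

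A few members held most of these reads. miR-6937-5p alone had 18419 reads, or 47.7% of the members' total. Together with miR-7087-3p (3407 reads) and miR-7033-5p (2826 reads) it made up 63.8%. miR-6944-3p (2354 reads) and miR-6977-3p (1228 reads) came next. The 12 most-read members held 79.9%, which left the other 266 members with the remainder.

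Most members were at the limit of detection. A read in every one of the 20 libraries was found for 22 members, and 111 were read in fewer than 10 libraries. In no library did 149 members (53.6%) exceed 3 reads, against 22.2% of the other features. A count of 0 allows up to 3 reads, which is between 0.249 and 2.55 CPM (reads scaled to a common library total) depending on the library's depth; this floor covers counting error only. For these 149 members a level cannot be told from absence in any library without a read, and it rests on at most 3 reads in the others.

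Both arms were listed for 100 numbers. The 3p arm had more reads in 56 of them and the 5p arm in 44, so neither arm led throughout. In total the 5p arms held 25193 reads and the 3p arms 13422. Without miR-6937-5p the 5p arms held 6774. By position, the 113 3p arms at the intron end held 11447 reads (median 19) and the 10 5p arms at the intron start 476 reads (median 19.5). The 120 arms elsewhere in an intron held 25530 reads (median 16), most of them from miR-6937-5p.

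As sequenced, 141.8 ± 14.04 members had at least 1 read in a normoxic WT library, 164.8 ± 24.6 in OGD WT, 178.4 ± 26.7 in normoxic KO and 161.8 ± 14.97 in OGD KO (mean ± SD, n = 5). These numbers moved with depth. After all libraries were thinned to 1160582 reads, the means were 58.4 ± 15.7, 122.4 ± 27.1, 67.4 ± 6.62 and 104.8 ± 16.4 in the same order. At equal depth the OGD libraries (88 to 153 members in WT, 87 to 130 in KO) lay above the normoxic ones (44 to 85 and 56 to 72) in both genotypes without overlap. The thinning was drawn once, and the WT groups came close (85 against 88 members), so another draw could make them overlap. All features together showed the same direction, from 786.8 ± 50.3 to 992.6 ± 69.2 in WT and from 799.2 ± 21.3 to 938.8 ± 60.1 in KO.

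The members' summed level was also higher after OGD. It was 221 ± 197 CPM in normoxic WT, 1234 ± 360 in OGD WT, 206 ± 71.5 in normoxic KO and 910 ± 327 in OGD KO (mean ± SD, n = 5). One normoxic WT library, replicate 5, stood at 573 CPM while the other 4 lay between 126 and 146, and the group mean without it was 133 CPM. That library was also the shallowest normoxic one, with 2492065 reads. After thinning to 1160582 reads it still had 712 member reads, against 137 to 166 in the other 4. With the 12 most-read members left out, the sums of the other 266 were 52.2 to 96.7 CPM in normoxic WT and 104 to 189 in OGD WT. In KO they were 55.2 to 65.5 CPM in normoxia and 96.9 to 171 after OGD. OGD libraries were thus above normoxic ones for the sum of the rarer members too, in both genotypes and without overlap. A sum over chosen members is a description and was given no test, and lower abundance of other RNAs and higher abundance of these cannot be told apart in values scaled to a total.

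**Figure D2:**
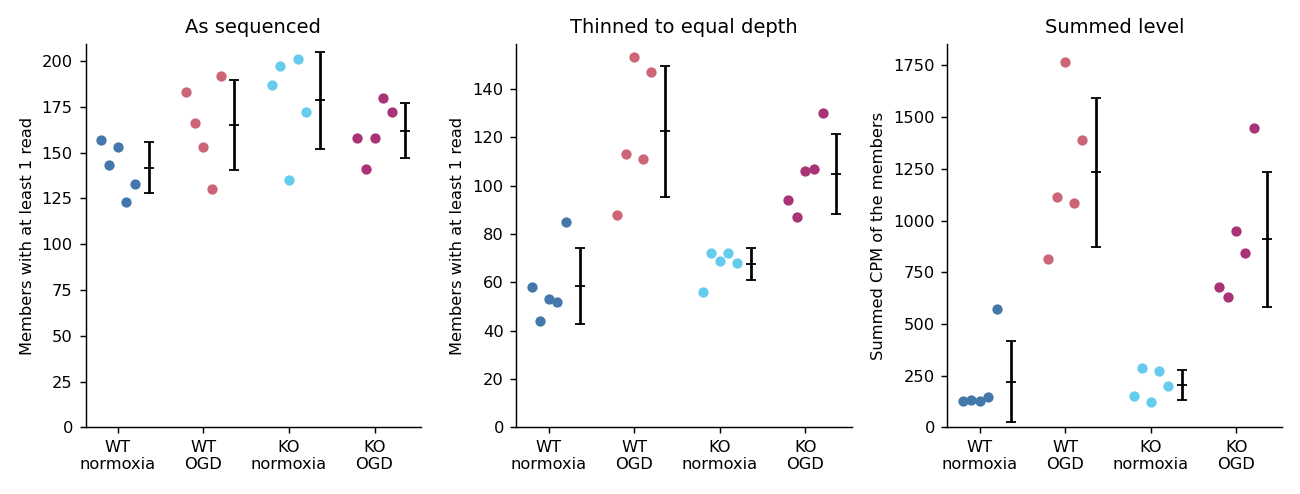
Members with at least 1 read per library as sequenced (left) and after thinning to 1160582 reads (middle), and summed CPM of the 278 members (right), for the 4 groups of 5 libraries; points are libraries, and the bar is the mean ± SD. In the 1 thinning drawn, the OGD libraries lie above the normoxic libraries of their genotype, and normoxic WT replicate 5 stands at 573 CPM, above the other normoxic libraries.

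OGD was compared with normoxia in each genotype with limma on log2(CPM + 0.5), a scale that understates changes of rare features. In WT neurons 33 of 277 tested members passed (adjusted p under 0.05 over the whole table), 32 higher and 1 lower. Over all 1478 features 23.1% passed in this comparison (18.7% higher, 4.4% lower), and 11.9% of the members. The members' median log2 fold change was 0.38 and that of all features 0.32. In KO neurons 26 of 278 members passed, 24 higher and 2 lower (9.35%, against 24.5% of all 1479 features, 18.8% higher and 5.75% lower). The medians there were 0.25 for members and 0.24 for all. These medians depend on how rare features are scaled. With a pseudocount of 0.1 CPM they were 0.72 for members and 0.49 for all features in WT, and 0.46 and 0.32 in KO. With voom they were 1.62 and 0.97 in WT, and 1.51 and 0.86 in KO. With voom, which changes the offset as well as the weights, 49.5% of members and 46.9% of all features passed in WT. In KO 57.2% and 53% passed, so the members' share was not below that of all features in every fit. Of the members called by voom, 86 of 137 in WT and 112 of 159 in KO never exceeded 3 reads in any library. In the main fit 10 and 6 such members were called.

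Scaling mattered for the direction of calls. When libraries were centred on their median, every log2 fold change moved down by 0.56 in WT and 0.51 in KO. In WT 11 members were then called higher and 13 lower, where 7.31% and 17.9% of all features were. In KO 12 were called higher and 27 lower, against 7.57% and 21.9% of all features. Of the members called higher, 14 were called in both genotypes (32 in WT, 24 in KO), which is 5.05% of the 277 members tested in both, against 12.8% of all 1476 features. With centred and with quantile-normalised libraries as well, 10 of the 14 were called higher in both (3.61% of members, against 6.03% of all features). They are miR-6937-5p, miR-6945-5p, miR-6948-3p, miR-6981-5p, miR-7033-5p, miR-7040-5p, miR-7044-5p, miR-7058-3p, miR-7082-5p and miR-7087-3p. Of the 42 members called higher in either genotype, 15 never exceeded 3 reads in any library. The groups did not overlap for 19 of 277 members in WT (16% of all features) and for 14 of 278 in KO (19.1% of all features).

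miR-6937-5p, the leading member, maps to chr12:28679325-28679348 (+ strand, mm10) in an intron of Adi1, a dioxygenase of the methionine salvage pathway. Its level was 19.97, 25.2, 16.6, 26.4 and 325 CPM in the 5 normoxic WT libraries and 454, 639, 1121, 679 and 770.0 CPM in the OGD WT libraries. In normoxic KO it was 27.2, 128, 13.0, 123 and 73.9 CPM, and in OGD KO 337, 299, 594, 479 and 864 CPM. Every OGD library was above every normoxic library of its genotype, although normoxic WT replicate 5 came close to the OGD level and the normoxic KO libraries were spread widely. The log2 fold change was 4.21 in WT (SE 0.55, limma adjusted p = 1.4e-05) and 3.16 in KO (SE 0.49, adjusted p = 0.00013). Without normoxic WT replicate 5 the value in WT was 4.98.

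miR-7087-3p lies at chr9:45939521-45939542 (- strand) and ends at the last base of an intron of Sidt2, a lysosomal membrane protein. Its levels were 3.21, 4.87, 2.48, 2.83 and 59.3 CPM in normoxic WT against 89.9, 137, 239.5, 93.2 and 169.7 CPM in OGD WT. In KO they were 4.82, 20.2, 1.71, 18.7 and 9.79 CPM against 73.2, 72.6, 91.0, 72.6 and 181 CPM. As with miR-6937-5p, normoxic WT replicate 5 was far above the other 4, and normoxic KO replicates 2 and 4 were above KO replicates 1 and 3. The log2 fold changes were 4.39 (SE 0.59, limma adjusted p = 1.7e-05) and 3.41 (SE 0.47, adjusted p = 3.8e-05), and 5.19 in WT without normoxic replicate 5. The other arm, miR-7087-5p, had 16 reads in all and did not pass in either genotype.

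miR-7033-5p lies at chr5:135383783-135383805 (- strand) in an intron of 109 bases of Pom121, a nuclear pore membrane protein. It was read at 7.85, 6.75, 5.94, 4.35 and 36.6 CPM in normoxic WT and at 65.9, 100.04, 116, 75.1 and 133 CPM in OGD WT. The KO libraries had 9.31, 16.6, 6.48, 14.3 and 9.23 CPM in normoxia and 77.4, 59.7, 72.6, 71.5 and 121 CPM after OGD. The groups did not overlap in either genotype, and the log2 fold changes were 3.35 (SE 0.39, limma adjusted p = 3.6e-06) and 2.82 (SE 0.23, adjusted p = 1.5e-07).

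miR-7058-3p (chr7:126367971-126367992, - strand) ends at the last base of an intron of 75 bases in Lat, an adaptor protein known from T cell signalling. It was nearly unread in normoxia, with 0.594, 0.625, 0.124, 0 and 3.40 CPM in WT and 0.832, 1.62, 0.512, 1.40 and 1.45 CPM in KO. After OGD it reached 19.4, 18.5, 28.03, 22.9 and 31.6 CPM in WT and 14.3, 12.5, 12.4, 16.3 and 23.4 CPM in KO. The log2 fold changes of 4.47 (SE 0.42, limma adjusted p = 3.9e-07) and 3.30 (SE 0.26, adjusted p = 1.2e-07) rest on 20 reads in normoxic and 254 in OGD WT, and on 55 and 193 reads in KO. Its mature sequence also occurs in an annotated Lat transcript that retains the intron. Its partner miR-7058-5p had 8 reads.

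miR-7082-5p starts 1 base after the start of an intron of 88 bases in Raver1, an RNA-binding protein (chr9:21075563-21075583, - strand). Its levels were 0 to 2.27 CPM in normoxic WT and 7.65 to 14.5 CPM in OGD WT, and 0 to 1.96 CPM in normoxic KO and 5.202 to 13.9 CPM in OGD KO. The log2 fold changes were 3.45 (SE 0.41) and 2.76 (SE 0.42), with no overlap between groups (limma adjusted p = 4.0e-06 and 0.00010). Its 3p arm had 10 reads.

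miR-6948-3p (chr14:54643050-54643070, - strand) ends 1 base before the end of an intron of Acin1, a protein tied to splicing and to chromatin condensation in apoptosis. Its levels in normoxia were 2.14, 3.0, 2.35, 1.89 and 5.29 CPM in WT and 2.58, 2.89, 1.88, 2.34 and 2.78 CPM in KO, with WT replicate 5 again the highest of its group. After OGD it was at 14.99, 14.5, 14.4, 13.2 and 27.1 CPM in WT and at 12.4, 14.6, 12.0, 15.3 and 10.03 CPM in KO. The log2 fold changes were 2.36 (SE 0.28, limma adjusted p = 4.0e-06) and 2.15 (SE 0.20, adjusted p = 3.9e-07). The partner miR-6948-5p, with 97 reads the best-read partner arm of the 12 leading members, had values of 0.69 (adjusted p = 0.16) and 0.27 (adjusted p = 0.73).

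Further members called higher in both genotypes had 22 to 105 reads, apart from miR-6944-3p. miR-7044-5p (105 reads, chr6:118085197-118085215, + strand, in Rasgef1a) had 0.124 to 1.89 CPM in normoxic and 1.72 to 6.02 CPM in OGD WT libraries, which overlap. Its log2 fold change was 2.08 (SE 0.40) in WT and 1.94 (SE 0.32) in KO (limma adjusted p = 0.00075 and 0.00024). miR-6981-5p, miR-7040-5p and miR-6945-5p had 48, 71 and 61 reads in all. miR-6945-5p, in an intron of Pdlim7 that also counts as exon in another transcript of that gene, had 3 reads over the normoxic WT libraries and 26 after OGD. The ratio of its pooled CPM was 25.2, with a 95% counting interval of 7.71 to 129.9. Its log2 fold change was 2.21 in WT (SE 0.34, limma adjusted p = 6.9e-05) and 1.70 in KO (SE 0.37, adjusted p = 0.0024), and 1.13 in KO on thinned libraries (adjusted p = 0.33). miR-7045-3p, in an intron of Chd4, a chromatin remodeller, had a log2 fold change of 1.51 in KO (limma adjusted p = 0.012). This call was lost on centred (1.00, adjusted p = 0.055), quantile-normalised (1.15, adjusted p = 0.056) and thinned libraries (1.41, adjusted p = 0.29). It was also lost without normoxic KO replicate 1 (adjusted p = 0.062). miR-6917-3p, in an intron of the receptor gene Erbb3, had 1.14 in WT (limma adjusted p = 0.038) and 1.42 in KO (adjusted p = 0.0039). Its WT call was lost in 8 of 10 fits without a library (adjusted p up to 0.11) and on centred (0.32) and quantile-normalised (0.16) libraries, and its KO call was lost on thinned libraries (0.14).

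Some calls were made in 1 genotype. miR-7027-5p (in Ube3b, a ubiquitin ligase) and miR-7025-5p (in an exon of Pdgfra, a growth factor receptor) had 0 reads in normoxic WT and 8 reads each in OGD WT. Each was thus 7.74-fold above a group floor of 3 reads. This ratio leaves out the counting error of the 8 reads and is no lower limit. Both WT calls were lost on centred libraries (log2 fold changes 0.78 and 0.83, limma adjusted p = 0.0504 and 0.057) and passed on quantile-normalised and thinned ones. Their KO values were 0.19 and 0.22, and neither differed between genotypes in the test of the difference (limma adjusted p = 0.86 and 0.78). miR-6995-3p was called in KO, at 1.29 (SE 0.27, adjusted p = 0.0019), and had 0.71 in WT (adjusted p = 0.30).

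Well-read members with little change form the contrast. miR-6944-3p fills the end of an intron of 96 bases in Dbn1, which encodes drebrin, an actin-binding protein of dendritic spines (chr13:55477681-55477703, - strand). It was at 18.8, 18.4, 19.4, 24.7 and 18.9 CPM in normoxic WT and 29.5, 29.7, 21.2, 34.1 and 27.6 CPM in OGD WT, so the groups overlap. KO libraries had 20.5, 27.2, 20.1, 22.3 and 17.0 CPM in normoxia and 34.1, 33.1, 25.9, 32.6 and 30.6 CPM after OGD. The log2 fold changes of 0.49 (SE 0.17, limma adjusted p = 0.048) and 0.54 (SE 0.14, adjusted p = 0.0096) passed, but the WT call was lost in 8 of 10 fits without a library and its sign turned on centred (-0.08) and quantile-normalised (-0.14) libraries. In KO the value on centred libraries was 0.03 (adjusted p = 0.90).

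miR-6977-3p, from an intron of 79 bases in Ptprs, a receptor tyrosine phosphatase of neurons, lay between 9.87 and 18.5 CPM in all 20 libraries. Its log2 fold changes were 0.24 and 0.31 (limma adjusted p = 0.39 and 0.17). miR-6958-3p (Dennd6b) had 0.48 and 0.46 without passing. miR-6952-3p had 0.95 in WT (adjusted p = 0.024) and 0.79 in KO (adjusted p = 0.056, and 0.031 with a replicate block). Its WT call was lost in 5 of 10 fits without a library, where the values ran from 0.82 to 1.09. The call was also lost on centred (0.39), quantile-normalised (0.30) and thinned libraries (1.07, adjusted p = 0.065). miR-6899-3p (in the transcription factor gene Klf7) and miR-7093-3p (in Armcx3, a mitochondrial outer membrane protein) had values below 0 in both genotypes, from -0.54 to -0.27, and did not pass. For miR-6899-3p in WT the value of -0.34 was 0.29 without OGD WT replicate 4. Of these, centred libraries gave calls in KO for miR-6899-3p (-0.78, adjusted p = 0.023) and miR-7093-3p (-1.05, adjusted p = 0.014). Quantile-normalised libraries called the same 2 in KO (-0.82, adjusted p = 0.0089, and -1.09, adjusted p = 0.025). Intron length did not separate the 2 kinds among the 11 of the 12 most-read members with a placed locus, since both risers and steady members had introns under 110 bases and introns over 300.

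**Figure D3:**
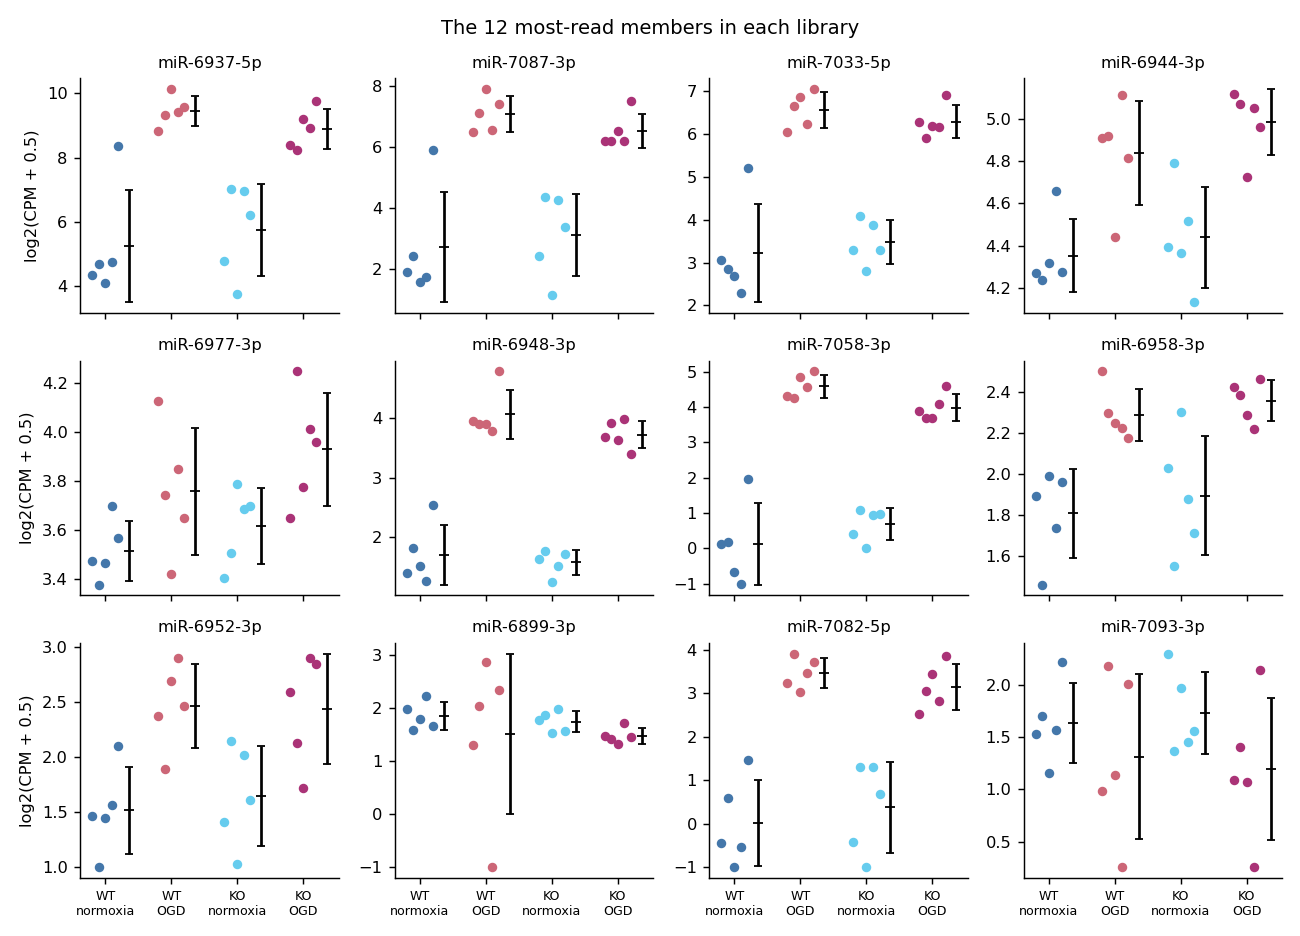
log2(CPM + 0.5) of the 12 most-read members in each of the 20 libraries, by group; points are libraries, the bar is the mean ± SD (n = 5), and each panel has its own y axis. miR-6937-5p, miR-7087-3p, miR-7033-5p, miR-7058-3p, miR-7082-5p and miR-6948-3p have no overlap between normoxia and OGD within a genotype, and normoxic WT replicate 5 is the highest normoxic WT library in those 6 panels.

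The 3 members called lower were each called in 1 genotype and are named because their values were seen. miR-6966-3p (Narfl) had 1.31, 2.50, 2.85, 3.21 and 4.16 CPM in normoxic WT and 1.47, 0.803, 0.849, 0 and 0.502 CPM in OGD WT, at -1.50 (SE 0.40, limma adjusted p = 0.0098). In KO it had -0.30 (adjusted p = 0.56). miR-7015-3p (Smap2) fell by 1.00 in KO (SE 0.28, adjusted p = 0.014), and had 0.19 in WT. miR-6900-3p (Ndufa10, a subunit of respiratory complex I) fell by 1.02 in KO (SE 0.32, adjusted p = 0.026), a call lost in 5 of 10 fits without a library. On thinned libraries the 3 values were -1.30, -0.67 and -0.58 and did not pass (limma adjusted p = 0.12, 0.52 and 0.33). On centred libraries they were -2.06, -1.51 and -1.53 (adjusted p = 0.00076, 0.00047 and 0.00064), and all 3 also passed on quantile-normalised ones.

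The OGD effects in WT and KO come from different libraries and can be set side by side. Over the 277 members tested in both, the log2 fold changes had a Pearson r of 0.74 and a Spearman rho of 0.38, and 201 had the same sign. The points are members, which share libraries and a scaling shift, so no p is given. The value was larger in WT for 179 of the 277. The difference between genotypes was tested for each feature, and 0 of 278 members passed (0% of all 1481 features). At an unadjusted p under 0.05 there were 25 members and 74 of all features, and limma with voom weights also called 0. For miR-6937-5p the difference was -1.05 (SE 0.84, adjusted p = 0.99) and for miR-7058-3p -1.17 (SE 0.52, adjusted p = 0.97). Without normoxic WT replicate 5 the difference for miR-6937-5p was -1.83 (SE 0.57, adjusted p = 0.25), and that for miR-7087-3p went from -0.98 to -1.78 (adjusted p = 0.25).

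**Figure D4:**
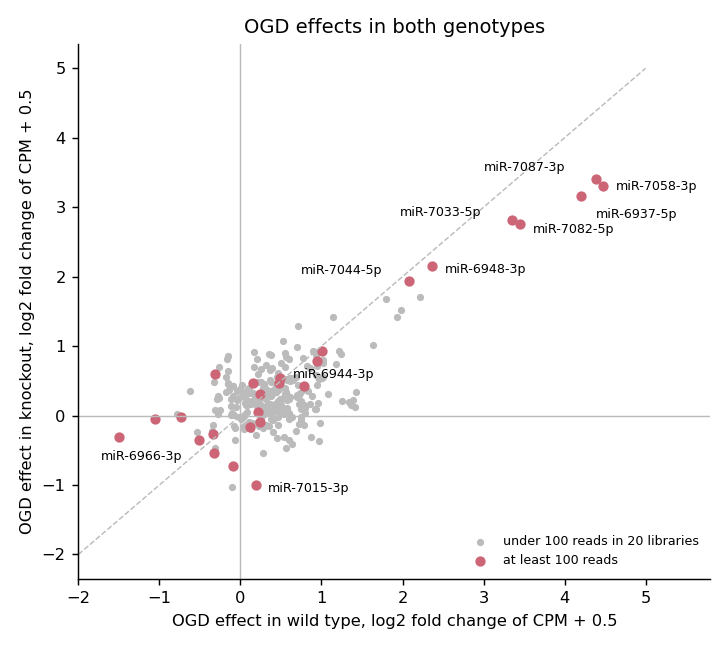
OGD effect (log2 fold change of CPM + 0.5) in WT (x axis) and in KO neurons (y axis) for each member; red points have at least 100 reads in the 20 libraries, grey points fewer, and the dashed line marks equal effects. miR-7058-3p, miR-7087-3p and miR-6937-5p stand farthest out at 4.21 to 4.47 in WT and 3.16 to 3.41 in KO, and most members lie in a cloud near the overall median.

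No member passed in the comparisons of KO with WT. The circular RNA itself is not a feature of these miRNA tables, so the genotype labels were not checked with it. In normoxia 0 of 278 members passed (0% of all features), with 16 members and 47 of all features at an unadjusted p under 0.05 and 0 called by voom. After OGD 0 of 278 passed (0% of all features), with 18 members and 108 of all features at an unadjusted p under 0.05 and 0 called by voom. The groups did not overlap for 1 member in normoxia, miR-7027-5p (0.54% of all features), and for 1 after OGD, miR-7024-3p (0.945% of all features). Both were named after their values were seen. miR-6937-5p was at 0.50 (SE 0.77, limma adjusted p = 0.98) for KO against WT in normoxia and at -0.55 (SE 0.20, adjusted p = 0.46) after OGD. Without normoxic WT replicate 5 the value in normoxia was 1.27 (SE 0.61, adjusted p = 0.84), and that of miR-7087-3p went from 0.40 to 1.20. Without OGD KO replicate 5, miR-6937-5p (-0.77, adjusted p = 0.0062) and miR-7087-3p (-0.82, adjusted p = 0.0084) passed as lower in KO after OGD.

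Entries with numbers outside the range that are known from short introns (miR-702, miR-877, miR-1224, miR-1981 and miR-1982, 10 entries) give a comparison. In WT 1 of the 10 passed as higher and 1 as lower, and in KO 3 and 2, with a median log2 fold change of 0.22 in each genotype. Over all features 18.7% passed as higher and 4.4% as lower in WT, and 18.8% and 5.75% in KO. With 10 entries these shares cannot be told apart. miR-1981-5p, with 27084 reads more abundant than any member, fell by 0.49 in WT and 0.36 in KO (limma adjusted p = 0.043 and 0.026). These calls were lost in 7 of 10 fits without a library in each genotype, and on thinned libraries (-0.43 and -0.37, adjusted p = 0.26 and 0.093). On centred libraries its values were -1.05 and -0.87 (adjusted p = 0.00015 and 4.7e-05), and on quantile-normalised ones -0.78 and -0.63 (adjusted p = 0.0087 and 0.0024). miR-877-5p had 0.64 and 0.86 (adjusted p = 0.032 and 0.0040). On centred libraries miR-877-5p had 0.08 and 0.35 without passing. Its calls were also lost on quantile-normalised (0.07 and 0.34) and thinned libraries (0.57 and 0.72, adjusted p = 0.23 and 0.12). The WT call was lost in 6 of 10 fits without a library, where the values ran from 0.52 to 0.75. miR-1224-5p had 0.24 and 0.16 without passing. miR-1981-3p (757 reads) had -0.18 in WT (limma adjusted p = 0.61) and -0.83 in KO (adjusted p = 0.0082). Its KO call was kept in all 10 fits without a library (adjusted p up to 0.032). It was also kept on centred (-1.34) and quantile-normalised (-1.42) libraries, and lost on thinned ones (-0.63, adjusted p = 0.23). In WT it passed only on centred (-0.74, adjusted p = 0.021) and quantile-normalised (-0.78, adjusted p = 0.028) libraries. Each of miR-1981-5p, miR-1224-5p and miR-877-5p starts at the first base of its intron, a position that few placed 5p arms of the block held. The lists were not compared by a test.

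The levels of miR-6937-5p ran close to those of miR-6240, a feature named without an arm with 335 to 1100.1 CPM in OGD libraries and 14.3 to 183 CPM in normoxic ones. The ratio of miR-6937-5p to miR-6240 lay between 0.756 and 1.78 in the 20 libraries (median 1.02), while both ranged over more than an order of magnitude. Its ratio to miR-3535, a more abundant feature, lay between 0.144 and 0.540. In normoxic WT replicate 5, all 3 were higher than in the other normoxic WT libraries.

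**Figure D5:**
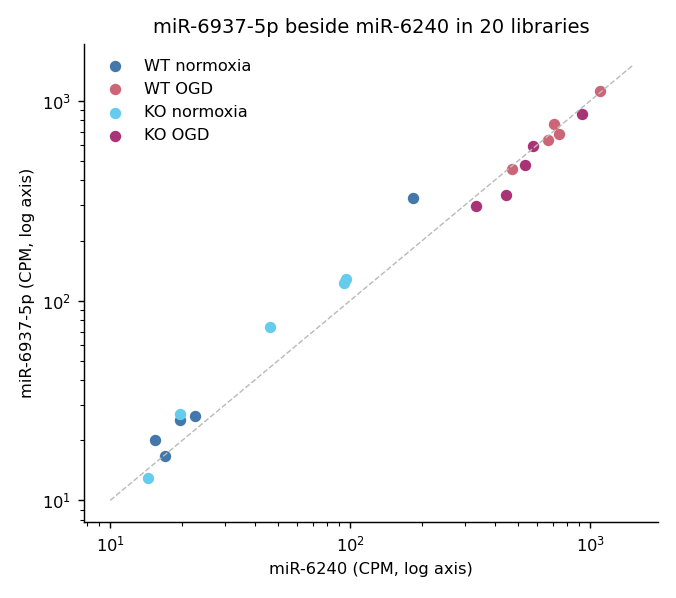
CPM of miR-6937-5p (y axis, log) against CPM of miR-6240 (x axis, log) in the 20 libraries, coloured by group, with a dashed line at equal levels. OGD libraries lie near the line at 299 to 1121 CPM of miR-6937-5p, and normoxic WT replicate 5 lies between them and the other normoxic libraries on the x axis but within their range on the y axis, at 325 CPM.

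The labelled cell type was checked with markers. The summed level of miR-124-3p, miR-9-5p and miR-128-3p was 287062 to 385679 CPM in all libraries. Within it, miR-124-3p was higher after OGD without overlap (2739 to 4107 against 5160 to 6484 CPM in WT, 3209 to 4075 against 4900.1 to 6105 in KO). miR-128-3p was lower without overlap in WT (45386 to 81262 against 34841 to 44367 CPM) and overlapped in KO. The level of miR-9-5p overlapped in both, and that of 4 microglia and blood miRNAs was 0.743 to 5.59 CPM. Endothelial miR-126a arms summed to 269 to 393 CPM. For 36 of the 244 members with a sequence, the mature sequence was also found whole in an annotated transcript other than a miRNA, so that reads of such transcripts and of the miRNA cannot be told apart. The part of depth, of other cells and of RNA quality in the changes was not tested beyond the thinning above.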

How the data were processed

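Small RNA libraries of 20 cultures were counted by mature miRNA by the authors; the submitters' processing notes name mm10, and the aligner and counting rules are not given in the sources used here. For every pair of the 4 groups there is a table deposited by the authors (6 in all), and its values are a score and not log2 CPM. From the values, this score is a whole read count times a library factor, raised to a power, with the extremes of each group of 5 drawn in to the quantiles 0.16 and 0.84. Undoing this gave whole reads (tolerance 0.05) that were equal in all tables holding a library (59070 comparisons, 0 differences). No label records these steps.

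CPM used the totals behind the library factors. limma 3.58.1 (R 4.3.3, trended empirical Bayes) was fitted to log2(CPM + 0.5) over each whole table, with Benjamini-Hochberg adjustment; an adjusted p under 0.05 counts as called. Genotypes were compared in their OGD effect by an interaction over 20 libraries. The recovery was tried on simulated scores built with the same steps that it undoes, so that trial cannot show whether those steps are the right ones. The fit was tried on simulated counts without a library effect shared between features. Replicate pairs differed by more than sampling noise (lowest chi-square per degree of freedom 16.5). Loci came from exact matches of the RefSeq GRCm38.p6 hairpins and mature sequences and GENCODE M21. Members named are the 12 with the most reads, up to 12 called members a comparison, the other arms of the first 12, and 4 short-intron entries outside the range. Members and lists were chosen with earlier results of these data known. Alternatives were other pseudocounts, a filter, voom, centring, quantile normalisation, thinning, the deposited values, a replicate block and leaving out each library.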

Additional observations from a re-analysis of the deposited data

Results flagged for a closer look

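In 60 groups of 5 libraries tested for a single value far from the rest (gap to the nearest library over the whole range above 0.71), 10 were flagged. The nominal rate of about 1 in 20 holds for independent, normally distributed values. The 60 groups share libraries, so the count of 10 cannot be set against that rate. Normoxic WT replicate 5 accounts for 6 of them, each as the highest library of its group. Its values were 325 CPM of miR-6937-5p (other 4: 16.6 to 26.4), 59.3 CPM of miR-7087-3p (2.48 to 4.87), 36.6 CPM of miR-7033-5p (4.35 to 7.85), 3.40 CPM of miR-7058-3p (0 to 0.625), 1.89 CPM of miR-7044-5p (0.124 to 0.567) and 573 CPM summed over the members (126 to 146). OGD KO replicate 5 was highest for miR-7087-3p at 181 CPM (others 72.6 to 91.0) and for miR-7033-5p at 121 CPM (59.7 to 77.4). OGD WT replicate 5 had 27.1 CPM of miR-6948-3p (13.2 to 14.99), and normoxic WT replicate 4 had 24.7 CPM of miR-6944-3p (18.4 to 19.4).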

How the results depend on the processing

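Read counts limit these results: with a median of 17 reads a member, most single members could not be tested with any precision. The numbers of members passing the OGD test were 33 in WT and 26 in KO. With at least 10 reads in at least 5 libraries, 8 of 11 tested members passed in WT and 10 of 16 in KO. Under that filter 48.9% of all 558 features passed in WT and 54.5% of all 596 in KO. A member can pass the filter on the reads of the higher group alone, so these shares support nothing. The numbers passing were 137 and 159 with voom, and 12 in KO after thinning (4.32%, against 14.6% of all features). On the deposited values, whose extremes had been drawn in, 44 passed in KO (15.8%, against 32.2% of all), 14 for KO in normoxia (5.04% against 2.23%) and 16 for KO after OGD (5.76% against 4.86%). Voom adds 0.5 reads to each count, which weighs more in shallow libraries: the 148 WT members that never exceeded 3 reads had a median log2 fold change of 1.88 there against 0.37 in the main fit. With a replicate block 36 passed in WT (13% against 26.3% of all; 4 gained, 1 lost) and 30 in KO (10.8% against 27.2%; 5 gained, miR-6952-3p among them, 1 lost). The sample titles number normoxic and OGD cultures alike. In each genotype the deviations of same-numbered libraries correlated above 0.1 in 4 of 5 pairs (-0.18 to 0.66 in WT, -0.20 to 0.48 in KO), and 3 and 2 pairs correlated best with their own number. These values do not settle whether equal numbers are pairs, and the main fit did not treat them as pairs. Leaving out each library gave 22 to 38 in WT, 16 to 32 in KO (16 without normoxic KO replicate 1, 17 without replicate 3) and 0 to 2 for KO after OGD, and 0 in the other 2 comparisons. The mean number of members detected (141.8, 164.8, 178.4 and 161.8 in normoxic WT, OGD WT, normoxic KO and OGD KO) was 57.2, 45.2, 78 and 44 when at least 3 reads were asked for, and 58.4, 122.4, 67.4 and 104.8 after thinning. miR-6944-3p in WT turned to -0.075 on centred and -0.141 on quantile-normalised libraries. For 29 of the named members, the short-intron entries left out, of 554 alternative values of 30 called results, 2 changed sign and 41 lost the call. Of 512 of the 28 uncalled ones, 45 changed sign and 31 gained a call.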
